A study of Mus musculus with 5 samples.

Results

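The genes described here carry cells through mitosis: they drive entry into it, condense and hold chromosomes, build the spindle, check that chromosomes are attached, and cut the daughter cells apart. Members were taken by symbol, from probes naming 1 gene and carrying a value on all 5 arrays: 16 listed symbols such as Mki67, Cdk1 and Cdc20, and any symbol starting with Plk, Aurk, Bub, Kif, Cenp, Ncap, Smc, Mad2 or Cdca. The rule uses names and the presence of a value, not its size; it was set with earlier results of these data known. It gave 61 of 8692 measured genes, from 87 of 19828 probes. Of the 61, 41 rest on 1 probe, 16 on 2, 3 on 3 and 1 on 5. Birc5, Cenph, Kifc3 and Prc1 dropped out because each lacked a value at 0.5 h, and Ccnb1, Cks1b and Ect2 had no probe naming them alone. The prefixes also take in genes that are kept apart here. These include 6 motors or motor partners of cargo transport and the Polo-like kinases Plk2 and Plk3 of cells outside mitosis. Mad2l2, Smco1, Smco2 and Smcr8 were placed in no role group (name matches in the figures). The remaining 49 were listed by hand with roles in cell division.

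Total RNA came from bone-marrow-derived macrophages of BalbC mice, grown out of marrow with human CSF-1 in all 5 cultures. One culture had no lipopolysaccharide (0 h), and the others had been in LPS from S. minnesota at 10 ug/ml for 0.5, 2, 7 or 21 h; nothing in the sources used here gives the age or sex of the mice or says whether marrow was pooled. The second channel of every array held RNA of whole C57BL6/J embryos of day 17.5, a reference that itself contains dividing cells. There was 1 array per time and no untreated culture at the later times, so LPS and time in culture cannot be told apart, no test was run and no p-value is given.

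Values are log ratios, with neither base nor direction stated. Here they are taken to run from embryo up to macrophage, a likely reading that no source settles; the other direction would turn every "higher" into "lower". A ratio of 0 marks the median probe of an array, and a change is a value minus the value at 0 h, both in units of the deposited log ratio. The only measurable error was the disagreement of probes for the same gene. Over 3034 genes its SD in the change from 0 h was, in order of time (0.5, 2, 7, 21 h), 0.27, 0.38, 0.23 and 0.23 units, and a gene is called higher or lower when its change passes 2 times that SD (0.55, 0.75, 0.46 and 0.47). That error covers spots and probes and leaves out cultures and mice. It is the SD of 1 probe, and means of several probes were held to the same threshold. The SD of the change over all genes was 0.29, 0.37, 0.25 and 0.25 units, about the size of that error. A call therefore does not mean that a change stands clear of error.

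Of the macrophage markers, 11 of 27 listed were measured, among them Lyz2 (lysozyme) at 1.18 and Fcgr1 (an IgG receptor) at 1.16 units at 0 h; Cd68 was at -0.15, and 6 of the 11 were above 0. Stromal markers lay lower on every array, with medians from -0.66 to -0.46 units over 13 genes. The 0.5 h array had the most empty values (681 of 19828 probes, against 207 to 285 on the others) and the 2 h array had the widest values (SD 0.53, against 0.32 to 0.43).

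A dividing cell enters mitosis when Cdk1 is activated by cyclins of the A and B types. Kinetochores built on the centromere then attach chromosomes to the spindle, a checkpoint holds back the ubiquitin ligase activator Cdc20 until attachment is complete, and a ring of actin and myosin organised by anillin divides the cytoplasm. Most of these genes are transcribed late in the cell cycle. Macrophages in culture divide in response to CSF-1, and LPS is known to halt that division.

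Many promoters of this kind carry CCAAT boxes, which bind NF-Y, and an element called CHR with the core TTTGAA, bound by the MuvB complexes that repress these genes in resting cells and activate them before division. RefSeq start sites were listed for 53 of the 61 members, with 61 promoters. In the 250 bases before the start, searched on both strands, CCAAT was present in 60.7% of member promoters and in 33.8% of all 32851 promoters of the table. TTTGAA was present in 27.9% and 16%, and both in 23.0% and 5.55%. One pair of matches overlapped. The promoters of 3 members that were lower late in LPS and hold both motifs are shown, with the matches (either strand) in capitals, together with that of Anln, which was also lower and holds neither. Bases that RefSeq places inside the gene are left out.
Mki67 (GRCm38.p6, chr7:135716451-135716629, - strand): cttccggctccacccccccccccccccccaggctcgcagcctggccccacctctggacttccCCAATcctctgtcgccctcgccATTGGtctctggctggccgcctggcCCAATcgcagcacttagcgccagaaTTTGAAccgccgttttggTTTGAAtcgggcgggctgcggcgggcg
Arhgap11a (GRCm38.p6, chr2:113848662-113848911, - strand): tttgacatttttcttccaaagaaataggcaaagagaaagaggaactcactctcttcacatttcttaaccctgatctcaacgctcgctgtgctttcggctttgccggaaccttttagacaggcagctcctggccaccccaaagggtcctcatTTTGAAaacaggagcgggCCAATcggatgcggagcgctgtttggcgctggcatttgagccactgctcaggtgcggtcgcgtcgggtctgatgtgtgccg
Cenpl (GRCm38.p6, chr1:161070517-161070766, + strand): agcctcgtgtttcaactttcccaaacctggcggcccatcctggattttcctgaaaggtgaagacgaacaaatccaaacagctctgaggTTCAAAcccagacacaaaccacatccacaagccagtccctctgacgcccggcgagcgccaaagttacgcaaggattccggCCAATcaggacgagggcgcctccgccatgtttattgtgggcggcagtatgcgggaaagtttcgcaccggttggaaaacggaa
Anln (GRCm38.p6, chr9:22389212-22389456, - strand): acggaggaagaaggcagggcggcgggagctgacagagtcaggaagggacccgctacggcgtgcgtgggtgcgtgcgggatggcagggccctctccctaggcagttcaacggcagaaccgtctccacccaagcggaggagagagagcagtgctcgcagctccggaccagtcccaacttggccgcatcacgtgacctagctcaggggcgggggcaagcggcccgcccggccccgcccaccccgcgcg

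In Mki67 the window held 3 CCAAT and 2 TTTGAA matches, and in Arhgap11a the TTTGAA match at -99 lay just before the CCAAT match at -81. In Cenpl the reverse complement of TTTGAA stood at -162 and CCAAT at -82. Ncapd2 also held both, and the promoters of Cenpk held CCAAT alone. Over all member promoters, 44 of 67 CCAAT matches and 13 of 21 TTTGAA matches started within 100 bases of the start site. Sites in overlapping promoters of Bub3, Cenpx and Kif1b are counted in each promoter. The same share for all promoters of the table is not given. The 13 members with both motifs had a median change of -0.07 units at 7 h and -0.14 at 21 h, with 3 and 2 lower past the spread defined above and 1 higher each time. The 18 with neither had -0.16 and -0.10, with 1 lower and 0 higher each time. Of all genes 3.35% and 2.25% were lower, and 3.11% and 4.04% higher. The difference between members with both motifs and with neither was not tested. Among those 13 were members that were lower (Mki67, Arhgap11a), higher (Cenpn) and within the spread (Cdk1, Cdc20).

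**Figure D1:**
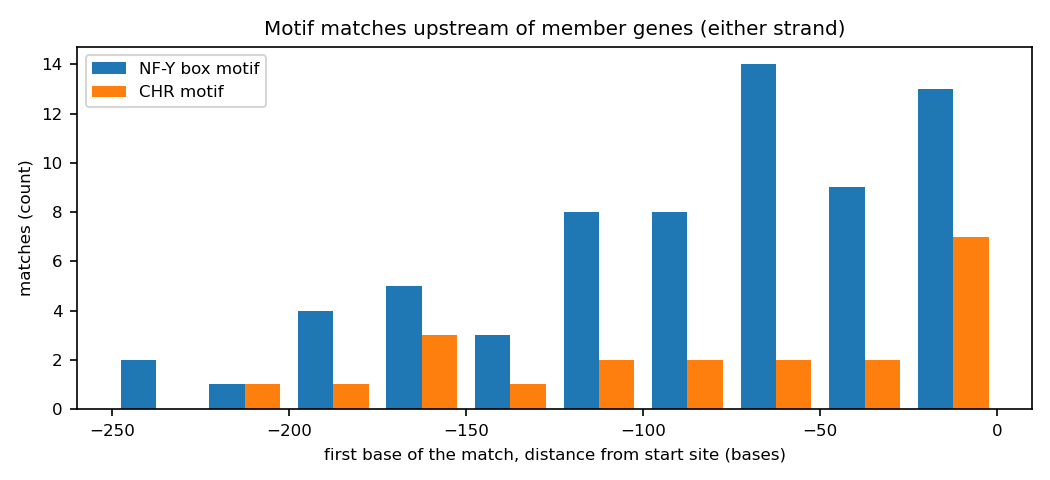
Matches to the CCAAT box that binds NF-Y and to the CHR core in 61 promoters of 53 member genes, on either strand. The horizontal axis gives the distance of the first base of a match from the RefSeq start site in bases, and the vertical axis counts matches in steps of 25 bases; 44 of 67 CCAAT and 13 of 21 CHR matches lie within 100 bases of the start.

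After 7 h of LPS, 5 of the 61 members were lower than at 0 h and 1 was higher, and after 21 h 5 were lower and 2 higher. The lower ones at 7 h were Arhgap11a, Anln, Cenpl, Cenpk and Ncapd2. At 21 h they were Arhgap11a, Anln, Tpx2, Mki67 and Cenpk. Among all genes 3.35% were lower and 3.11% higher at 7 h, and 2.25% and 4.04% at 21 h, against 8.20% lower among the members at each of these times. The other 55 and 54 members lay within 2 SD. Against the 0.5 h array 4 members were lower at each late time, next to 5.43% and 5.11% of all genes, so the members' share there was close to that of all genes. A lower value in bulk RNA can come from fewer cells in mitosis or from less RNA per cell, which cannot be told apart.

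The median change of the 61 members was -0.06 units at 7 h and -0.04 at 21 h, beside 0.00 and 0.01 for all genes. The 49 with roles in division had medians of -0.12 at both times, with 32 of 49 below 0 at 7 h and 29 at 21 h. They were listed with earlier results of these data known, and leaving out the other members lowers the median. At 7 h 5 of 6 transport kinesins, 3 of 4 name matches and 1 of 2 interphase Polo-like kinases were above 0. All genes were below 0 in 48.9% and 47.8%. At 0.5 and 2 h 33 and 28 of the 61 members were below 0, next to 46.9% and 45.3% of all genes. With the 0.5 h array as baseline the median of the 61 was -0.002 at 7 h, beside 0.007 for all genes. At 0.5 and 2 h the median was -0.02 and 0.00, beside 0.01 and 0.03 for all genes. Quantile normalization gave -0.06 and -0.05, beside -0.005 and -0.01. The 4 comparisons share the 0 h array, so they are not independent of each other.

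**Figure D2:**
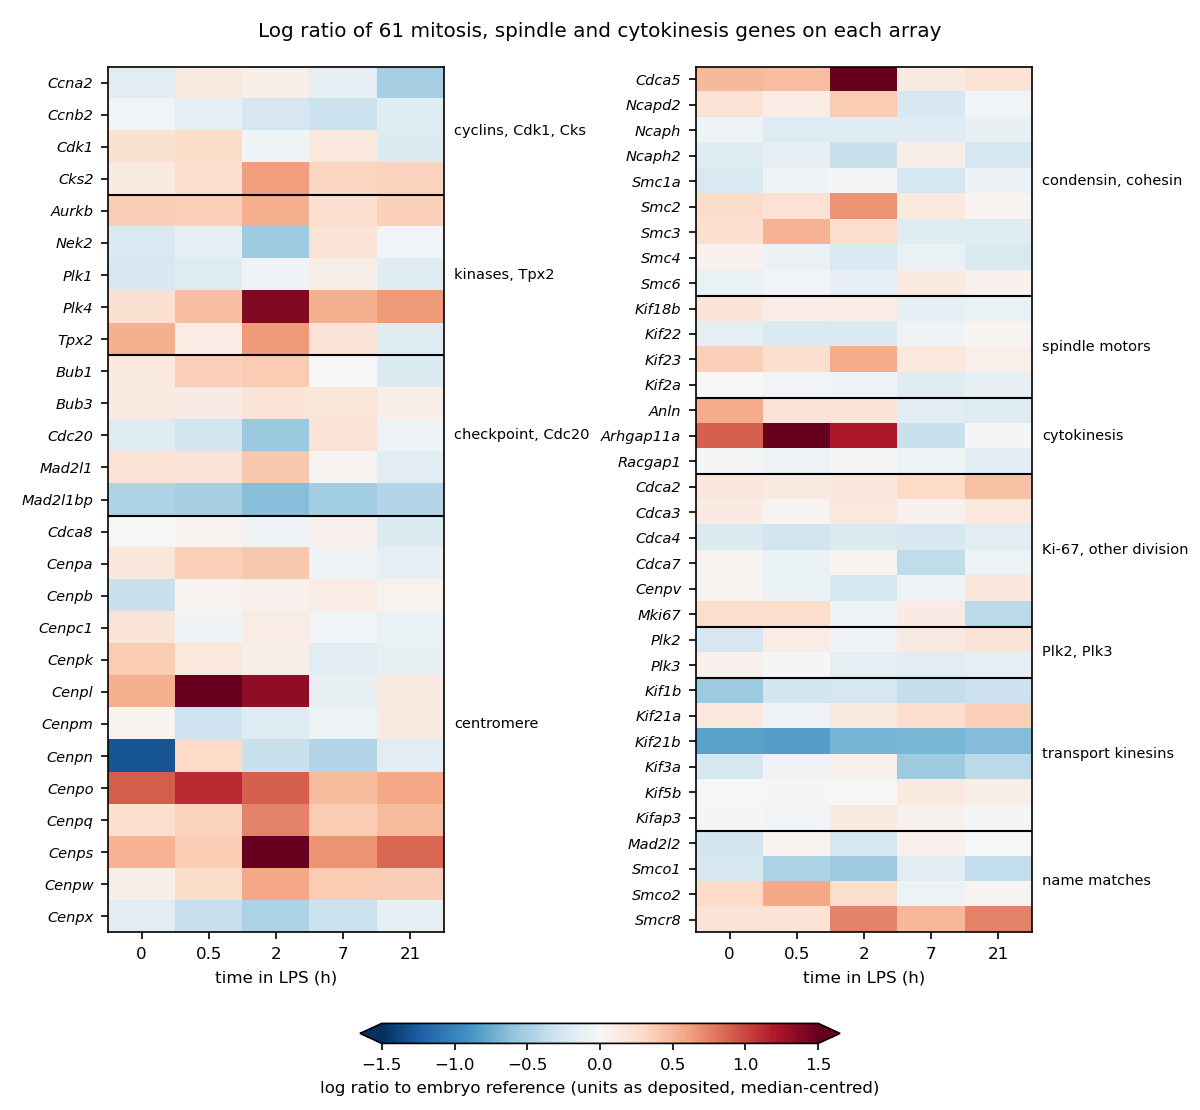
Log ratio to the embryo reference of all 61 members on each of the 5 arrays, in units of the deposited value after centring, with red for values above the median probe and blue below (colours end at 1.5 units in either direction). Rows are grouped by role; Arhgap11a and Anln go from 0.89 and 0.56 at 0 h to values below 0 at 7 and 21 h, while Cenps, Cdca5 and Plk4 stand out on the 2 h array alone.

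Cytokinesis genes held the largest decreases. Arhgap11a encodes a GTPase-activating protein of dividing cells. In order of time (0, 0.5, 2, 7 and 21 h, as for the genes that follow) its ratio was 0.89, 2.00, 1.22, -0.33 and -0.03 units. It was thus high on the 3 early arrays and low on both late ones, with changes of -1.22 and -0.93 units that ranked 5th and 6th lowest of 8692 genes. The step up at 0.5 h (1.11 units) fell to 0.08 with quantile normalization. Among the 186 nearest probes on the array list, 8 were at least 1 unit higher at 0.5 h (4.30%, against 1.41% of all probes); their part in that step was not tested. At 7 h the neighbours had a median of -0.19 units.

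Anln encodes anillin, the scaffold of the contractile ring, and read 0.56, 0.20, 0.19, -0.16 and -0.20 units in order of time. Its changes of -0.72 at 7 h and -0.76 at 21 h ranked 58th and 21st lowest. The 197 probes next to it had medians of -0.13 and -0.09. The first drop was already there at 0.5 h, so against the 0.5 h array the changes were -0.36 and -0.40 and no longer passed 2 SD. Racgap1, a component of the centralspindlin complex of the midzone, stayed within 2 SD (-0.06 and -0.15). All 3 cytokinesis genes were lower on both late arrays than on the 0 h and 0.5 h arrays, as were 26.3% of all genes. For Racgap1 the gap was far below the probe SD (-0.076 at 7 h against -0.074 at 0.5 h). Each of the 3 genes rests on 1 probe. Prc1, which bundles midzone microtubules, had an empty value at 0.5 h and is no member. It read 0.31, 0.27, 0.00 and 0.15 on the arrays that had a value.

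The proliferation antigen Ki-67 coats mitotic chromosomes and marks cycling cells. Mki67 read 0.26, 0.27, -0.05, 0.13 and -0.41 units. It was clearly low on the 21 h array only. The change of -0.67 units ranked 45th lowest of all genes and passed 2 SD in each of the 7 alternatives run, from -0.81 to -0.66. Tpx2, which activates Aurora A and nucleates spindle microtubules, read 0.53, 0.11, 0.64, 0.19 and -0.18. Its change at 21 h was -0.71 units, the 33rd lowest, but the 0.5 h value was also low and against it the change was -0.29, within 2 SD.

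Among the mitotic kinases no other change at 7 or 21 h passed 2 SD. Nek2, a centrosome kinase, was at 0.44 units from 0 h at 7 h. The Polo-like kinase gene Plk1 read -0.24, -0.20, -0.05, 0.09 and -0.18, a change of 0.33 at 7 h (2 probes of 0.47 and 0.19) and 0.06 at 21 h. The chromosomal passenger kinase Aurkb (2 probes) read 0.37, 0.36, 0.54, 0.26 and 0.36 units and stayed within 2 SD. Plk4, the kinase that starts centriole duplication, was higher at 2 h by 1.16 units, with ratios of 0.23, 0.45, 1.39, 0.54 and 0.64. A second Plk4 probe, numbered next to it, had no value at 0.5 h and read 0.72, 1.12, -0.06 and 0.00 at 0, 2, 7 and 21 h. With it included, the change at 2 h went from 1.16 to 0.78, at 7 h from 0.31 to -0.24 and at 21 h from 0.41 to -0.16, so the 2 probes disagree on the late direction.

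No gene of mitotic entry passed 2 SD, though the median change of the 4 was -0.24 units at 21 h, beside 0.01 for all genes. Cdk1 read 0.23, 0.28, -0.07, 0.16 and -0.21 units, and its change of -0.44 at 21 h lay just inside 2 SD and ranked 241st lowest of 8692. The cyclin gene Ccna2 read -0.17, 0.14, 0.09, -0.15 and -0.50, lowest on the 21 h array like Cdk1 and Mki67. Its 2 probes changed by -0.61 and -0.06 units at 21 h. Ccnb2, a B-type cyclin gene, read -0.04, -0.14, -0.25, -0.33 and -0.18, with changes of -0.28 and -0.14 at the late times. Its second probe, without a value at 0.5 h, went from 0.30 at 0 h to 0.07 at both 7 and 21 h. Cks2, a Cdk1-binding subunit, was at 0.19 and 0.22, and all 4 lay within 2 SD.

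Spindle checkpoint genes lay within 2 SD at all times. Mad2l1, which encodes the inhibitor of Cdc20, read 0.21, 0.20, 0.41, 0.04 and -0.17 units. Both of its probes were lower at 7 h (-0.21 and -0.14) and at 21 h (-0.26 and -0.51). The checkpoint kinase gene Bub1 read 0.15, 0.36, 0.38, -0.01 and -0.20. Bub3, its partner, had a mean between 0.10 and 0.20 on all 5 arrays, but its 2 probes disagreed. They changed by -0.21 and 0.33 at 2 h and by -0.20 and 0.13 at 21 h. Cdc20 itself went the other way at 7 h, with ratios of -0.19, -0.30, -0.55, 0.22 and -0.06 and a change of 0.41 units. Mad2l1 and Bub1 were thus lower on both late arrays than on the 0 h and 0.5 h arrays, and Cdc20 was higher. Of all genes 26.3% were lower and 28.7% higher in this way.

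**Figure D3:**
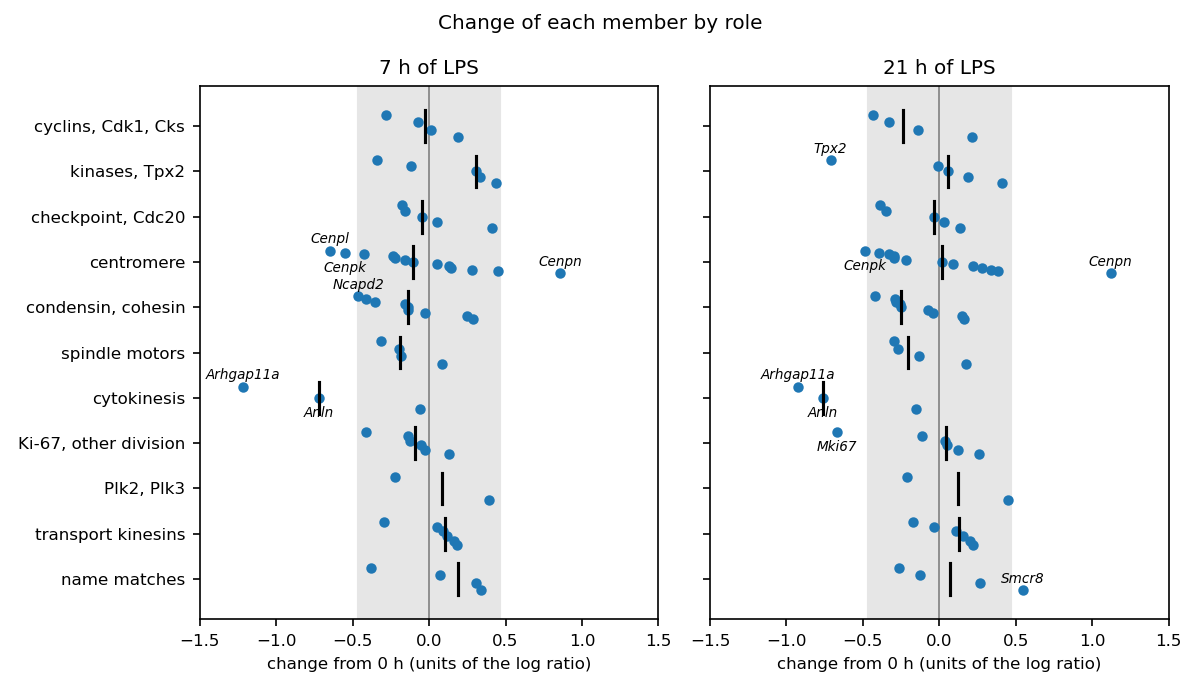
Change from 0 h of each of the 61 members after 7 h (left) and 21 h (right) of LPS, in units of the log ratio, by role. Points are genes, black bars are group medians and the grey band is 2 times the probe-to-probe SD (0.46 and 0.47 units); named genes lie outside it, 6 at 7 h and 7 at 21 h.

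Centromere genes went in both directions. Of 13, 2 were lower at 7 h, 1 at 21 h, and Cenpn was higher at both (all genes: 3.35% and 2.25% lower, 3.11% and 4.04% higher). Cenpk, a kinetochore protein gene, read 0.38, 0.15, 0.09, -0.17 and -0.11 units. The 181 probes next to it had medians of -0.16 and -0.15 at the late times. Its changes of -0.55 and -0.49 fell inside 2 SD against the 0.5 h array (-0.32 and -0.26) and after subtracting the local median of neighbouring probes (-0.40 and -0.35). Cenpl, another gene of the constitutive centromere network, read 0.53, 1.74, 1.33, -0.11 and 0.14. It was high at 0.5 and 2 h (changes of 1.20 and 0.80) and low at 7 h (-0.65), a course like that of Arhgap11a. The change at 2 h fell to 0.11 with quantile normalization and to -0.41 against the 0.5 h array. Among the 125 probes next to it, 7 had risen by 1 unit or more at 0.5 h (5.60%), and the neighbours' median at 7 h was -0.22; without that local median its change at 7 h was -0.41, inside 2 SD. The part of the neighbourhood was not tested.

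Cenpn, which encodes a reader of the centromeric nucleosome, had the largest increase at 21 h among the members. Its ratios were -1.29, 0.29, -0.34, -0.43 and -0.17 units. The 0 h array stands well below the other 4. Changes of 0.95, 0.86 and 1.12 at 2, 7 and 21 h became -0.63, -0.73 and -0.47 against the 0.5 h array. Cenpa, the centromeric histone H3 variant gene, had both probes lower at 7 h (-0.22 and -0.22) and at 21 h (-0.41 and -0.19), and its mean lay within 2 SD. Cenpb, whose product binds a DNA box in centromeric repeats, was at 0.45 and 0.38 units, also within it. The other centromere members, Cdca8, Cenpc1, Cenpm, Cenpo, Cenpq and Cenpx, lay between -0.43 (Cenpo) and 0.13 (Cenpq) at 7 h and between -0.33 and 0.22 for the same genes at 21 h, within 2 SD. The 2 probes of Cenpw disagreed, at -0.02 and 0.59 at 7 h. Cenph, with no value at 0.5 h, read 0.72, 2.01, -0.08 and 0.11 at 0, 2, 7 and 21 h. The passenger gene Birc5 (survivin), also empty at 0.5 h, read 0.12, 0.43, 0.19 and 0.20 on the same 4 arrays.

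Cenps stood out at 2 h. It encodes a histone-fold protein of the centromere that also works in DNA repair, and read 0.52, 0.39, 2.64, 0.67 and 0.86 units, a change of 2.12 at 2 h. Cdca5, which encodes sororin, the protector of cohesin, behaved alike: 0.49, 0.46, 2.15, 0.13 and 0.20, a change of 1.66. Together with Plk4, Cenpl and Cenpn, 5 members were higher at 2 h and 0 lower, next to 4.84% and 0.23% of all genes. At 0.5 h Cenpn, Cenpl and Arhgap11a were higher and 0 lower, next to 4.3% and 0.357% of all genes; each was also past 1 unit, but with quantile normalization Cenpl was at 0.52 and Arhgap11a at 0.08. At 2 h Cenps, Cdca5 and Plk4 were higher by at least 1 unit. At 7 h Arhgap11a was lower by as much, at 21 h Cenpn was higher, and no other member was. Among all genes such increases made up 1.47%, 2.72%, 0.276% and 0.253% in order of time, and such decreases 0.023%, 0.092%, 0.127% and 0.0575%. Quantile normalization put Cenps at 1.03, Cdca5 at 0.74 and Plk4 at 0.59 units at 2 h. Of the probes next to Cenps, 11.6% had risen by 1 unit or more at 2 h, and of those next to Cdca5 12.1%, against 3.24% of all probes. Their part in both values was not tested.

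Of 9 condensin, cohesin and Smc5/6 genes, 7 were below 0 at 7 h and at 21 h, next to 48.9% and 47.8% of all genes. Their medians were -0.14 and -0.25 units, and some lay near 0 (Smc1a at -0.03 at 7 h, Ncaph at -0.04 at 21 h). The condensin gene Ncapd2 alone passed 2 SD, at 7 h, when 3.35% of all genes were lower. Its ratios were 0.22, 0.11, 0.38, -0.24 and -0.04, and its change of -0.46 was at the threshold itself. The cohesin ring gene Smc3 read 0.23, 0.52, 0.26, -0.18 and -0.18. Its 2 probes were both lower at 7 h (-0.28 and -0.54) and at 21 h (-0.56 and -0.28). They disagreed at 0.5 h (-0.19 and 0.77) and at 2 h (-0.41 and 0.47), so the early ratios are means of opposite changes. Smc2, a core subunit of condensin, read 0.28, 0.22, 0.68, 0.14 and 0.03 and had 3 probes at -0.02, -0.38 and -0.35 at 21 h and a mean of -0.25. Smc6, of the repair complex Smc5/6, read -0.10, -0.04, -0.13, 0.14 and 0.06. It lay on the other side at 7 h, with 3 probes of 0.15, 0.36 and 0.23.

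Spindle motors were within 2 SD. Kif23, the motor of centralspindlin, was at -0.20 units at 7 h and -0.27 at 21 h, Kif18b at -0.31 and -0.30, Kif2a at -0.19 and -0.13, and the chromosome-arm motor Kif22 at 0.08 and 0.18. Transport kinesins had 5 of 6 members above 0 at 7 h and 4 at 21 h, next to 4442 and 4536 of all 8692 genes. Their medians were 0.11 and 0.13. The exception at 7 h was Kif3a, a kinesin-2 motor of cilia, at -0.30 and -0.17 with both probes lower at both times, the largest change of the group at 7 h. Above 0 were Kif1b (0.18 and 0.22), which carries mitochondria and synaptic cargo, and Kif5b (0.16 and 0.11), a conventional kinesin. Kifap3, the partner of kinesin-2, read 0.02, -0.04, 0.15, 0.07 and -0.02 and had 3 probes within -0.26 and 0.11 at both times.

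The other cell-division-associated genes lay within 2 SD. Cdca3, a trigger of mitotic entry and the member with most probes, read 0.12, 0.04, 0.15, 0.07 and 0.16 units. Its 5 probes disagreed in sign at 7 h, from -0.26 to 0.26. Cdca7 was at -0.41 at 7 h and -0.12 at 21 h, and Cdca2 at 0.13 and 0.26. Cdca4 and Cenpv stayed between -0.12 and 0.12 at these times. Plk2, a stress- and serum-induced kinase gene, was at 0.39 and 0.45, with 1 probe at 0.88 and 0.81 and the other at -0.09 and 0.09. Plk3 was at -0.22 and -0.21. Smcr8, an autophagy regulator with no role in mitosis, read 0.20, 0.21, 0.74, 0.50 and 0.74 and passed 2 SD at 21 h (0.55 units).

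**Figure D4:**
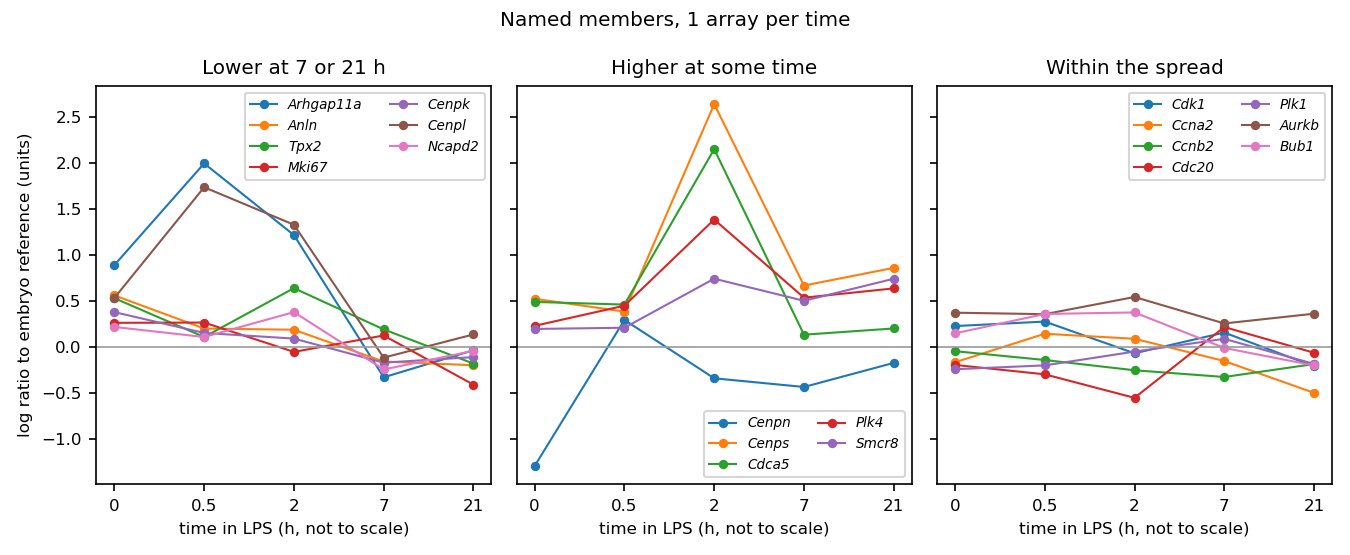
Log ratio to the embryo reference on each array for members lower at 7 or 21 h (left), members higher at some time (middle) and 7 genes of mitotic entry and the checkpoint that stayed within 2 SD (right), in units, with 1 array per time and times not to scale. Arhgap11a and Cenpl peak at 0.5 h (2.00 and 1.74) before they drop, Cenps, Cdca5 and Plk4 peak at 2 h, and Cenpn is lowest at 0 h (-1.29).

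A comparison that does not rest on the 0 h array alone sets both late arrays against both early ones. In 23 of 61 members the 7 and 21 h values were both below the 0 and 0.5 h values, and in 17 both were above, next to 26.3% and 28.7% of all genes. Without centring, which shifts all genes alike on an array, these were 34 and 6, next to 45.6% and 10.5%. With centring, 20 of the 49 with roles in division were lower (40.8%) and 12 higher (24.5%). Of all genes 26.3% were lower and 28.7% higher, and the 49 were listed with earlier results known. Lower were, besides the genes above, Ccnb2, Cdk1, Cenpo, Kif18b, Kif23, Kif2a, Smc2 and Smc4. Higher were Plk1, Nek2, Plk4, Cks2, Kif22 and Smc6 among others. Against 0 h alone, 28 members were below 0 at both 7 and 21 h (37.6% of all genes were) and 20 were above at both (40.9%). Of the 20 members with more than 1 probe, 7 had every probe lower at 7 h, 5 every probe higher and 8 were mixed. At 21 h these were 7, 3 and 10. The same shares over all genes with several probes are not given, so these counts are no result about the members. Cenpa, Mad2l1, Smc3 and Kif3a had all probes lower at both times, and Plk1 and Kif21b had all higher. None of the 20 passed 2 SD at any time, so each call among the members rests on a single probe. The SD is that of 1 probe, so the threshold is stricter for means of several probes. The lack of calls among the 20 is therefore no result about them.

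The rest of the mitosis programme, 60 of 107 listed genes outside the members, had medians of -0.07 units at 7 h and -0.08 at 21 h. At 7 h 3 were lower (5%) and 0 higher, next to 3.35% and 3.11% of all genes. At 21 h 2 were lower (3.33%) and 1 higher (1.67%), next to 2.25% and 4.04%. Mastl, the Greatwall kinase gene, was at -0.66 units at 7 h (2 probes), and Espl1, which encodes separase, at -0.58. Tubgcp2, of the gamma-tubulin complex, was at -0.49, and Spc25, of the Ndc80 complex, at -0.42, within 2 SD. Mastl and Tubgcp2 were, like Arhgap11a and Cenpl, higher at 0.5 h (0.73 and 0.98). Lower at 21 h were Rad21, a cohesin subunit gene (-0.63), and Incenp, of the chromosomal passenger complex (-0.62). Top2a, a marker of cycling cells, was at -0.07 and -0.02. DNA replication genes (44 of 64) had medians of -0.08 and -0.05, with 3 lower at 7 h (6.82%, against 3.35% of all genes), 4 at 21 h (9.09%, against 2.25%) and 0 higher. They included the checkpoint kinase gene Chek1 at -0.76 and -0.38, the latter within 2 SD, and Mcm4, of the replicative helicase, at -0.62 and -0.51. The lowest at 21 h was Gmnn, the geminin gene, at -0.55.

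Of the cell type marker lists, only the stromal one had medians below 0 at 7 and 21 h. Stromal markers had medians of -0.13 at 7 h and -0.15 at 21 h, with 1 of 13 lower and 0 higher each time. On both late arrays 7 were lower than on both early ones, next to 26.3% of all genes. Macrophage markers had medians of 0.09 and 0.24, with 5 and 3 of 11 higher, next to 3.11% and 4.04% of all genes. The part of either in the members' changes was not tested. Neutrophil markers (7) had 0.00 and 0.01, with 0 past 2 SD. Erythroid markers (10) had 0.09 and 0.03, also with 0. Lymphocyte markers (5) had 0.09 and 0.21 with 1 higher, and dendritic cell markers (2) 0.20 and 0.16 with 0.

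**Figure D5:**
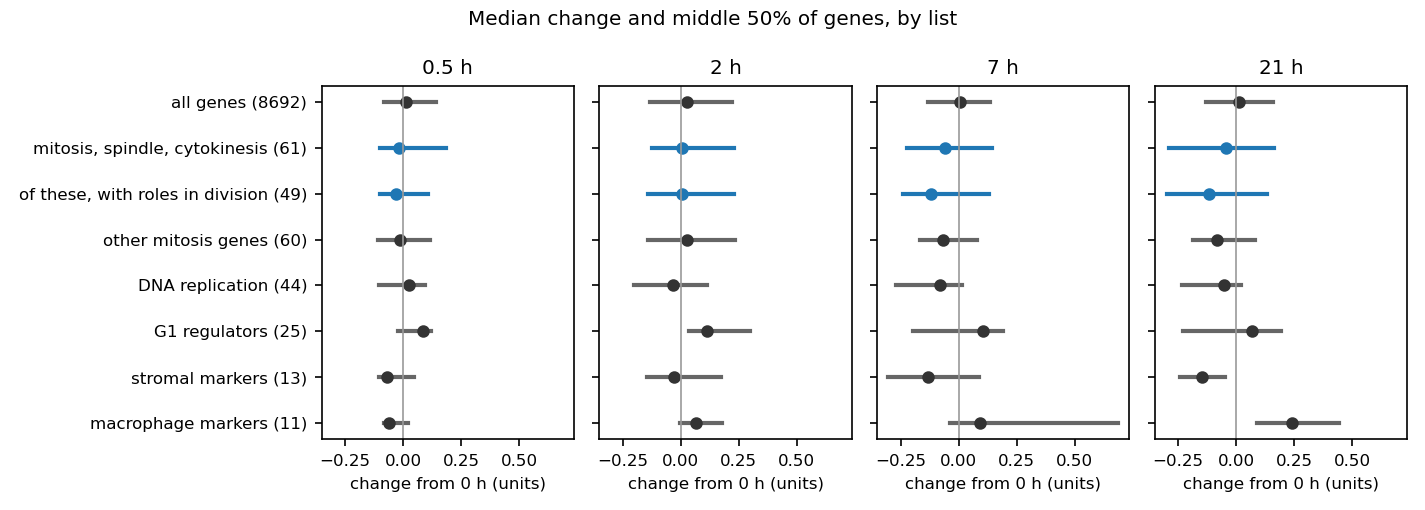
Median change from 0 h (points) and middle 50% of genes (bars) at 0.5, 2, 7 and 21 h, in units of the log ratio, for all genes, the members (blue), other cell-cycle lists and cell type markers, with the number of genes measured in brackets. At 7 and 21 h the medians of the members, the other mitosis genes and the DNA replication genes lie between -0.12 and -0.04, with bars that overlap those of all genes.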

How the data were processed

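RNA of 5 macrophage cultures was measured against embryo RNA on 2-channel arrays. The values the authors deposited are signed log ratios, 1 for each probe on an array; for their base, direction, background correction and normalization nothing is stated in the sources used here, and the labels name Cy3 as the dye. Of 19828 probes, 14759 name 1 gene, 170 several and 4899 none; of the first, 14628 had a gene ID found in RefSeq (GRCm38.p6), which changed 0 symbols. The median over 18391 probes measured on every array was subtracted per array, and probes of a gene were averaged. The probe-to-probe SD comes from pairs of probes (SD of their difference over the square root of 2). Members and lists were chosen with earlier results of these data known. Values were given for members past 2 SD at 7 or 21 h or past 1 unit, with 3 or more probes, or fixed by name, and for the largest changes per list at 7 h. Other genes named to describe a role were chosen after their values were seen. Alternatives were the scaling, probe choice, baseline, threshold and a filter on the lowest 10% of mean log ratio; the comparison of late and early arrays was added after the data were seen. The calculation was tested on simulated data. Signal over background was not used here. Software was Python 3.11.15, numpy 2.4.6, pandas 2.3.3 and matplotlib 3.10.9.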

Additional observations from a re-analysis of the deposited data

How the results depend on the processing

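With 1 array per time, none could be left out, and no paired analysis was possible because each group has 1 array. The median change of the members stayed below 0 at 7 and 21 h under all 8 alternatives of scaling, probes, baseline and filter (from -0.14 to -0.002 and from -0.13 to -0.01). Without centring all genes also had medians below 0 (-0.08 and -0.05), as with quantile normalization (-0.008 and -0.01). In these 2 settings the sign is thus not particular to the members. Against the 0.5 h array all genes were at 0.007 and 0.02, beside -0.002 and -0.04 for the members. Counts past 2 SD are small and moved. Without centring 9 members were lower at 7 h, next to 5.83% of all genes, and 34 were lower and 6 higher on both late arrays, next to 45.6% and 10.5%. Quantile normalization gave 2 lower members at both 0.5 and 2 h, next to 1.40% and 1.20% of all genes. With the running median removed 2 were higher at 7 h and 4 at 21 h, next to 3.35% and 3.18% of all genes. In that setting 5 and 4 were lower, next to 1.85% and 1.96%. Probes counted singly gave 6, 8, 5 and 4 higher at 0.5, 2, 7 and 21 h and 8 lower at 21 h. These count the 87 member probes and are given without a share of all probes. Against the 0.5 h array 3 were higher and 1 lower at 2 h, next to 3.76% and 1.90% of all genes. At 7 and 21 h 0 were higher there, next to 0.81% and 0.84%. Against the mean of both early arrays 3, 0 and 1 were higher at 2, 7 and 21 h (all genes: 4.38%, 1.62% and 1.98%). Lower were 0, 5 and 6 (all genes: 0.60%, 5.59% and 4.94%). Without the lowest 10% of ratios 0 were higher at 7 h and 1 at 21 h, since Cenpn was left out (all genes: 2.77% and 3.66%). Lower were 5 of 55 at each time, next to 3.46% and 2.28% of all genes. At a threshold of 1 unit 3 were higher at 2 h, 0 higher and 1 lower at 7 h, and 1 higher and 0 lower at 21 h. Reversed against the 0.5 h array were Cenpl at 2 h (-0.41) and Cenpn at 2, 7 and 21 h (-0.63, -0.73 and -0.47). Ncapd2 lost its call at 7 h in 4 of 7 alternatives. Arhgap11a kept its calls at 7 and 21 h in all 7, with changes from -2.33 to -1.02 and from -2.03 to -0.80. Dim spots could not be left out, so the signal behind single-probe values is unknown.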

Other observations

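Regulators of the step before DNA synthesis went both ways late in LPS. Of 36 listed genes 25 were measured, and their median change was 0.10 units at 7 h and 0.07 at 21 h. Higher at 7 h were Ccnd2 (0.52 units, 5 probes), which encodes cyclin D2, and Cdkn1a (0.51, 2 probes), the gene of the Cdk inhibitor p21. Cdkn2c, of the inhibitor p18, was lower (-0.48). Cdk2, the partner of cyclins E and A, was at 0.46 at 7 h, just inside 2 SD, and higher at 21 h (0.47). Ccnd1, which encodes cyclin D1, read 0.35, 0.44, 0.30, -0.09 and -0.08 in order of time, with changes of -0.44 and -0.43 inside 2 SD. Cyclins D1 and D2 thus had opposite signs at both late times, -0.44 against 0.52 and -0.43 against 0.28. The difference was not tested.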
